A study of Schizosaccharomyces pombe with 2 samples.

Results

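The loci described here are 3 bins of 10 kb in a contact map of fission yeast (Schizosaccharomyces pombe), and each is named after a gene in it. The mal3 bin spans bases 2240001 to 2250000 of chromosome I, the gid7 bin spans 1640001 to 1650000 of the same arm, and the gir2 bin spans 810001 to 820000 of chromosome III. They were chosen, out of 1258 bins of which 1218 hold values, for their contacts with each other and because each holds a tRNA gene. The 6 protein-coding genes nearest their middles are mal3 and pof14, gid7 and apc11, and gir2 and fil1. The contacts within the trio therefore chose the bins, and they are given as descriptions without a test.

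Contacts were measured by Hi-C, in which fixed chromatin is cut and re-ligated, so that sequenced ligation products report which stretches of DNA lay close together. The 2 biological replicates were growing cultures of the strain sap1-1, which carries a mutant allele of the gene for the DNA-binding protein Sap1. Cells were grown in rich medium at 26 °C and then at 33 °C for 6 hours, fixed in 3% formaldehyde for 20 min, and cut with HindIII. There was 1 group, no control strain and 1 map, so no value is a difference between strains and no replicate error could be had. The map held 37526794 recovered reads, a median of 58761.5 per bin and a median of 11 per pair of bins on different chromosomes.

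Fission yeast chromosomes are tethered by their centromeres and telomeres, so loci on different chromosomes meet more often when they lie at like distances from their centromeres. Genes for tRNAs are transcribed by RNA polymerase III, are bound by its factor TFIIIC, and flank the centromeres of this yeast in dense arrays. Many are present as identical copies scattered over the genome. Mal3 belongs to the EB1 family and rides on growing microtubule ends, and Pof14 is an F-box protein tied to sterol synthesis. Gid7 is a subunit of the GID ubiquitin ligase, known from budding yeast for the removal of gluconeogenic enzymes. Apc11 is the RING subunit of the anaphase-promoting complex. Gir2, as known from budding yeast, binds the translation regulator Gcn1, and Fil1 is a GATA-type transcription factor of the response to amino acid starvation.

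The tRNA genes of the trio are shown because the strongest contacts join bins that hold them or lie beside them. The mal3 and gid7 bins each hold 1 glycine tRNA gene, and the gir2 bin holds 1 isoleucine tRNA gene, SPCTRNAILE.09 (III, 817425 to 817498, plus strand). A glycine tRNA gene also lies beside the gir2 bin in the next bin (III, 820567 to 820637, minus strand). Of the 12 nuclear glycine tRNA genes, 8 are identical over their 71 bases, among them all 5 glycine genes below. The lines run 5′ to 3′ in the direction of the gene and come from RefSeq's ASM294v3. Each glycine gene is given with the 10 bases before it, and capitals mark a HindIII site, AAGCTT. The first is in the mal3 bin (I, 2249180 to 2249250, minus strand), then follow those of the gid7 bin (I, 1646292 to 1646362, minus strand), of the bin with def1 and gpd3 (II, 570156 to 570226, plus strand), of the bin beside gir2, and of the bin with dfg501 and dfg502 (II, 180994 to 181064, minus strand). The last is the isoleucine gene alone, without the bases before it.
SPATRNAGLY.02: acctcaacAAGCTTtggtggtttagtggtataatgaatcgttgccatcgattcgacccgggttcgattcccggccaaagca
SPATRNAGLY.01: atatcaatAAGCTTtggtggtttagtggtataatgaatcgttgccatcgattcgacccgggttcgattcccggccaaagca
SPBTRNAGLY.06: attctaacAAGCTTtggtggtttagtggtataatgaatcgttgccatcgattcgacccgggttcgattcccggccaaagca
SPCTRNAGLY.11: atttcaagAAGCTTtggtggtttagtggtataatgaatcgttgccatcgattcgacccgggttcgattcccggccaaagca
SPBTRNAGLY.03: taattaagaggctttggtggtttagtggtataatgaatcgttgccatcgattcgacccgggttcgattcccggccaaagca
SPCTRNAILE.09: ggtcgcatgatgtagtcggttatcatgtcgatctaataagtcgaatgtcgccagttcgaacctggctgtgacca
The first 4 begin at a HindIII site that reaches into the gene, whereas the fifth, on II at 180994, has none. A HindIII site overlaps 8 of the 171 nuclear tRNA genes, or 4.68%. Of the 8 identical glycine genes, 6 have such a site.

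The gir2 bin met both chromosome I bins far above expectation. The expectation was the mean corrected contact of all inter-chromosomal arm bin pairs whose distances to their centromeres fell into the same classes, each 100 kb wide. Bins closer than 200 kb to the end of a chromosome, or closer than 100 kb to the middle of a centromere, were not counted as arm bins, which left 1068. The gir2 and mal3 bins had a corrected contact of 71.1 against an expected 8.97, or 7.93 times as much. That rests on 96 reads where 12.1 were expected, with a 95% Poisson interval of 6.42 to 9.68. The gir2 and gid7 bins had 49.9 against 7.25, or 6.88 times as much (interval 5.27 to 8.82, 62 reads). The intervals cover counting error only, and these values chose the bins.

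Among the 355211 pairs of arm bins on different chromosomes, the contact of mal3 with gir2 had the highest ratio, and that of gid7 with gir2 ranked 3. Ratios of 2 or more were reached by 1.02% of these pairs. For both the mal3 bin and the gid7 bin, the gir2 bin ranked first of 575 possible partners. For the gir2 bin they ranked first and second of 885.

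The third side of the triangle did not stand apart. The mal3 and gid7 bins lie 600 kb apart on the left arm of I and had a corrected contact of 48.3, from 59 reads. The 281 pairs of arm bins 600 kb apart on that arm had a mean of 36.2 (SD 7.86 over pairs), a lowest of 6.92, a median of 35.8 and a highest of 58.0. The pair of mal3 and gid7 was 1.34 times the mean (interval 1.02 to 1.72) and 1.55 SD above it, and 19 of the 281 pairs, itself included, were as high. None of these 281 pairs reached 2 times the mean (0%). Over all arms, 57 of 705 pairs at that separation were as high. The name trio thus covers only part of the pattern: 2 of the 3 contacts were strong, and both went through the gir2 bin.

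**Figure D1:**
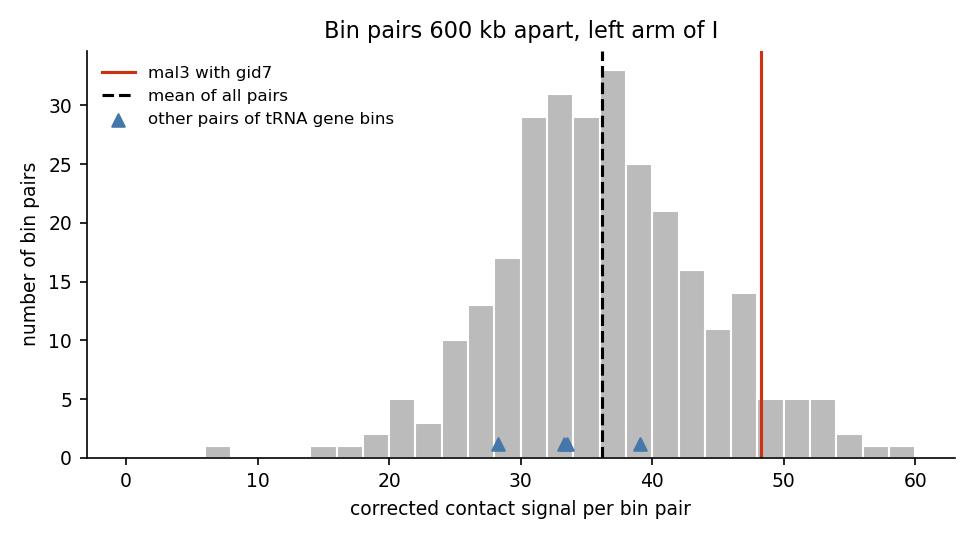
Number of bin pairs (y) by corrected contact signal (x) for all 281 pairs of arm bins 600 kb apart on the left arm of I. The red line marks mal3 with gid7 at 48.3, inside the upper flank of the distribution, the dashed line marks the mean of 36.2, and triangles mark the other pairs in which both bins hold tRNA genes.

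On their other side, both chromosome I bins met the bin 600 kb away at close to the mean. The mal3 bin met the bin 600 kb to the right (ucp6 and spo12) at 39.1, or 1.08 times the mean (interval 0.794 to 1.44). The gid7 bin met the bin 600 kb to the left (sec2 and atp18) at 37.1, or 1.03 times the mean (0.756 to 1.36). Of the 281 pairs, 5 joined 2 bins with tRNA genes, and mal3 with gid7 was the highest of them. The other 4 had corrected contacts of 28.3 to 39.1. The highest pair of all joined gyp7 and arp3 with hri2 and mak16 (58.0, 61 reads), and neither bin of it was a member.

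The contacts around the strong pairs were lower. Of the 8 bin pairs around mal3 and gir2, 1 reached 2 times expectation, and their mean ratio was 1.53 (interval 1.30 to 1.80, 151 reads). The one was the gir2 bin with the bin to the right of mal3, which holds rnh201 and alp11 and the start of trm9, at 3.85 times (interval 2.90 to 5.01, 55 reads). The gir2 bin also met the bin 30 kb to the right of mal3 at 2.30 times (37 reads). On the other axis, the mal3 bin met the neighbours of the gir2 bin at 1.18 (16 reads) and 1.50 times (12 reads). Farther to the right it met III 830001 at 1.89 (interval 1.12 to 2.98, 18 reads) and 840001 at 1.59 times (19 reads). The 16 pairs of the next ring had a mean of 1.09 (0.944 to 1.26), and 0 of them reached 2.

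Around gid7 and gir2 the mean of the 8 surrounding pairs was 1.41 (interval 1.13 to 1.74, 88 reads). Here too 1 of the 8 reached 2 times, the gir2 bin with the bin to the right of gid7, which holds ubx3 and met11 (2.03 times, interval 1.14 to 3.35, 15 reads). The next ring had 1.15 (0.976 to 1.35), with 0 of 16 at 2 times. Around mal3 and gid7 the surrounding 8 pairs averaged 0.969 (0.869 to 1.08), and 0 of them reached 2 times. In all 3 cases the centre was above each of the 8 and the 16 pairs around it. Within 30 kb, however, 2 pairs were higher than mal3 with gid7, at 1.68 (bins 2210001 and 1640001, 46 reads) and 1.37 times (2270001 and 1670001, 102 reads).

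**Figure D2:**
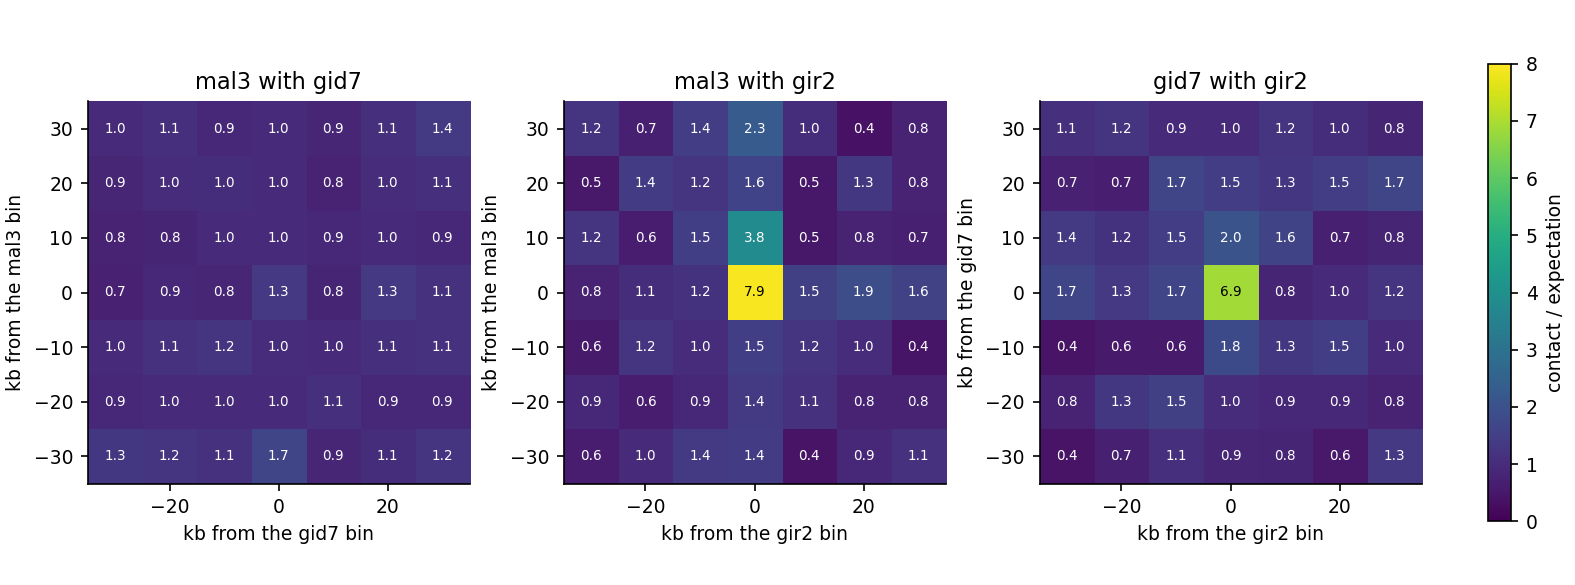
Ratio of contact to expectation for each pair of bins within 30 kb of the 3 pairs, with kb from each bin on the axes and the ratio in colour and digits. The centres are 1.3, 7.9 and 6.9, and beside the mal3 and gir2 centre the pair with the bin to the right of mal3 has 3.8.

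Beyond the gir2 bin, no partner of the mal3 or gid7 bin with at least 10 reads exceeded 2.105 times expectation. The mal3 bin reached 2 times expectation with 2 of 575 arm bins on other chromosomes, or 0.348%, where the share over all pairs was 1.02%. The second was on II at 820001 with lsc1, dsk1 and a glutamate tRNA gene (2.04 times, interval 1.23 to 3.18, 19 reads). Next came II 2380001 with svf2 and sec6102 (1.82), II 3300001 with nep1 and psl1 (1.82) and II 3410001 with nca2 and rsc1 (1.80). On chromosome I, beyond 100 kb, 2 of 474 arm bins reached 2 times (0.422%), where 0.337% of all such pairs did. They were 3890001 with dlc2 and dph4 (2.105, 28 reads) and 5040001 with rlp24, sck2 and an arginine tRNA gene (2.02, 20 reads). After them came 840001 (wss1, sst1) at 1.89, 1000001 (sod1, pro1) at 1.76 and 260001 (tra2) at 1.76.

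The gid7 bin reached 2 times with 3 of 575 arm bins on other chromosomes (0.522%), of which 2 rested on 10 reads or more. The next partner after gir2 was III 710001 with bfr1 (2.03, interval 1.16 to 3.30, 16 reads). It was followed by III 1250001 with mrpl37, cca2 and a serine tRNA gene (1.99, 13 reads), II 3160001 with iqw1 and caf5 (1.90) and II 940001 with gap1 and cct6 (1.89). None of its 474 partners on chromosome I reached 2 times (0%). The highest was 2710001 with pmc1 and the cyclin gene cig2 (1.80, interval 1.25 to 2.51, 34 reads). The next was 4120001, which holds gid5, another GID subunit gene, with mga2 (1.76, 0.984 to 2.90, 15 reads). Then came 2950001 (mag1, toe3) at 1.69, 2210001 (ypt3, chp1 and a valine tRNA gene) at 1.68 and 740001 (ura1, ime4) at 1.67.

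The gir2 bin was in wider contact with other chromosomes. It reached 2 times with 22 of 885 arm bins (2.49%, against 1.02% of all pairs), all on 10 reads or more. Its mean ratio over other chromosomes was 1.18, the 26th highest of 1068 arm bins, where the median over arm bins was 0.992 (SD 0.0796). The bins beside the gir2 bin also lay above that median, III 800001 at 1.12 (rank 83) and 820001 at 1.09 (rank 138). The mal3 bin (1.03) and the gid7 bin (1.02) lay near that median. With bins within 2 of a stronger one merged into it, which takes in the bin beside mal3 at 3.85, its strongest partner after mal3 and gid7 was II 570001 with def1, gpd3 and the identical glycine tRNA gene SPBTRNAGLY.06 (3.02, interval 2.101 to 4.19, 35 reads). Then came II 610001 with its8 and ibp1 (2.46, 24 reads) and I 970001 with sey1 and the meiotic gene meu13 (2.40, 20 reads). On chromosome III none of 165 arm bins beyond 100 kb reached 2 times (0%), and the highest was 1630001 with wtf15 and pmd1 (1.65, interval 1.22 to 2.18, 49 reads). Also there were 2200001 (ckk2, fap7) at 1.64, 1710001 (cyc1, lto1) at 1.63, 220001 (dbl5, urm1) at 1.54 and 2140001 (lsm2, wtf23) at 1.50.

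**Figure D3:**
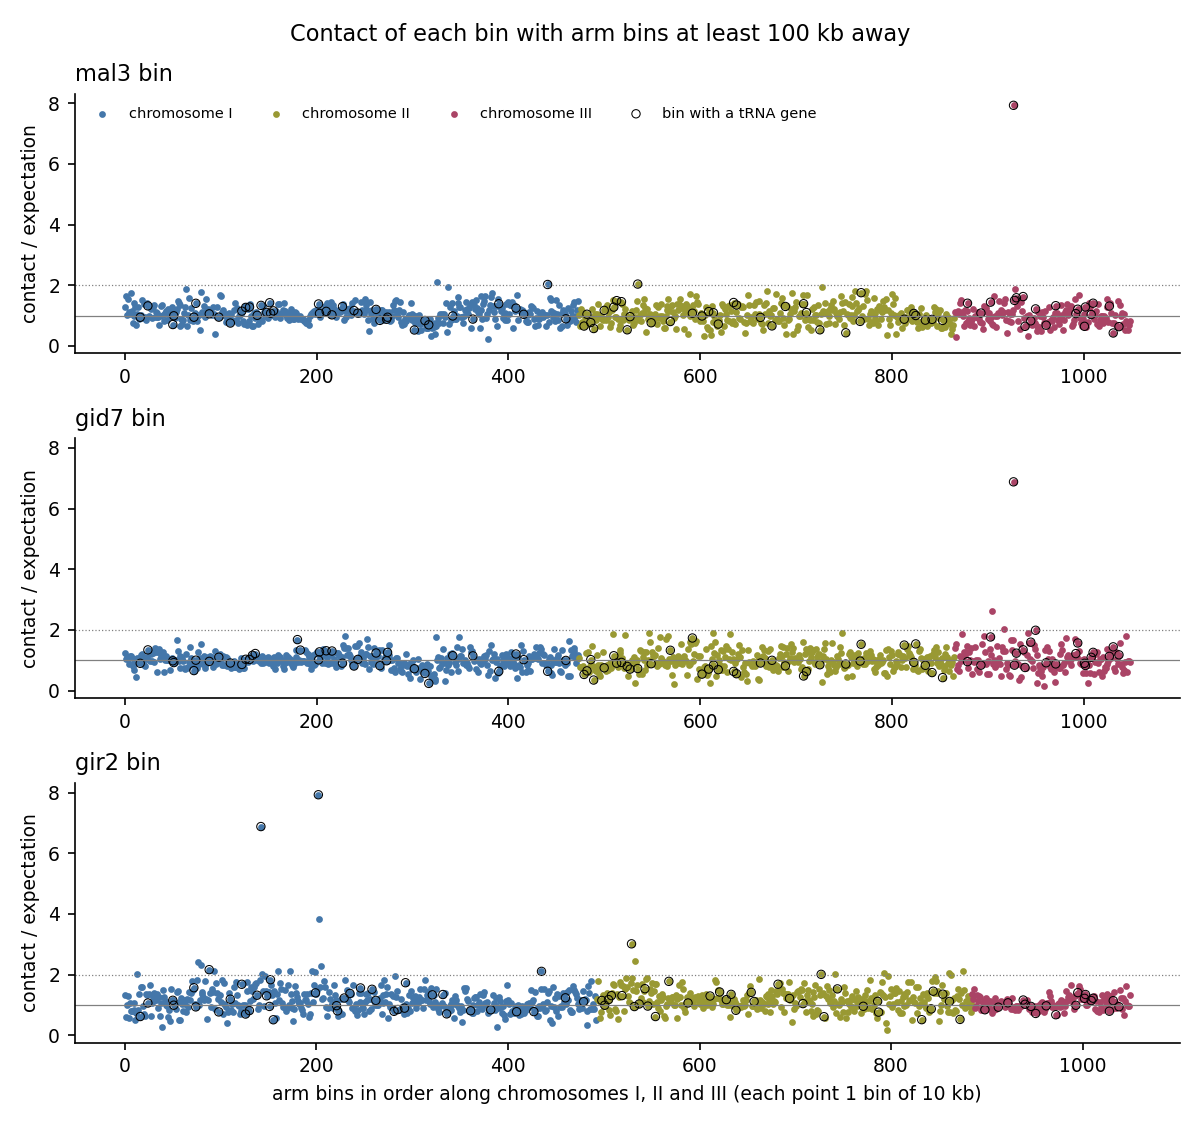
Ratio of contact to expectation (y) for the mal3, gid7 and gir2 bins with every arm bin at least 100 kb away, in order along the 3 chromosomes (x); circles mark bins with tRNA genes. The mal3 and gid7 rows each have 1 point far above the rest, the gir2 bin at 7.93 and 6.88, and the gir2 row has those 2 and a point at 3.85 beside mal3.

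The median contact with bins that hold tRNA genes can be set beside that with other bins. The mal3 bin met 56 arm bins with tRNA genes on other chromosomes at a median ratio of 1.07 (95% interval of the median 0.880 to 1.21), and the other 519 arm bins at 0.993. The gid7 bin met the same 56 at a median of 0.903 (0.839 to 1.000) and the others at 0.991. The gir2 bin met 76 such bins at a median of 1.15 (0.995 to 1.30) and the other 809 at 1.13. Of the tRNA bins 6 reached 2 times with the gir2 bin (7.89%) and of the others 16 (1.98%). With the mal3 bin these were 2 (3.57%) and 0 (0%), and with the gid7 bin 1 (1.79%) and 2 (0.385%). The trio's own contacts, which chose the bins, are among these counts. Over all pairs of arm bins on different chromosomes that both hold tRNA genes, 1.32% reached 2 times.

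After the same merging, the 3 strongest partners of the gir2 bin, the mal3 and gid7 bins and II 570001, each hold an identical glycine tRNA gene with a HindIII site. These copies were examined after the values were seen, and the other 19 arm bins at 2 times or more with the gir2 bin hold none of them. Another 2 lie beside centromere II, where the ratio to arm bins is not defined. There the gir2 bin had a corrected contact of 78.4 with bin 1590001 (rpb1 and hmo1, 55 reads), against a median of 48.3 over bins within 50 kb. With bin 1640001 (yox1 and rec6, 40 reads) it had 122.3 against 34.4. On this local scale the folds were 1.62 (interval 1.22 to 2.11) and 3.56 (2.54 to 4.84) for these, 5.11 for mal3, 4.52 for gid7 and 1.996 for II 570001 (1.39 to 2.78). The values for mal3 and gid7 chose the bins, and II 570001 was named for its rank, so these 3 lend the pattern no support. Of the centromeric copies, 1640001 lay above every bin within 50 kb in corrected contact and 1590001 below 1640001. In reads, 1640001 lay below 1650001 (68 reads) and 1660001 (45 reads). Its 40 reads were corrected to 122.3, whereas the 68 reads at 1650001 were corrected to 48.3. The 2 local medians at this centromere are each over 7 bins. The bins of both centromeric copies also hold several other tRNA genes, among them at 1640001 an isoleucine gene that shares 24 words of 30 bases with that of gir2.

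The bins of both copies without a site were met by the gir2 bin at close to the level of their surroundings or separation. The bin with dfg501 and dfg502 on II (180001) met the gir2 bin at 10.1 against a local median of 10.4 (0.971 times, interval 0.485 to 1.74, 11 reads). The bin with ura4 and tam14 on III (110001) met it at 1.09 times the mean for its separation (0.805 to 1.45, 48 reads). These 2 bins lie within 200 kb of a chromosome end and so are not arm bins. Glycine tRNA genes of another sequence, on II at 280001, 320001 and 2060001 and on III at 2030001, met the gir2 bin at 0.796 to 1.18 times expectation.

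The mal3 and gid7 bins met the other copies at lower values than they met the gir2 bin, with or without a site. At II 180001, without a site, both had higher local folds than the 0.971 of the gir2 bin. On the local scale the copies without a site had 1.27 and 1.42 with mal3 and 1.52 and 1.21 with gid7, on II and III. The centromeric copies at 1590001 and 1640001 had 1.67 and 1.17 with mal3 and 1.45 and 1.53 with gid7, on 3 to 9 reads each. With II 570001 the mal3 bin had 1.28 times expectation (interval 0.745 to 2.05, 17 reads) and the gid7 bin 1.15 (0.629 to 1.93, 14 reads). With the bin beside gir2 that holds the copy of III, 820001, they had 1.50 (0.775 to 2.62, 12 reads) and 0.840 (0.273 to 1.96, 5 reads). The high contact of both was with the gir2 bin before it, at local folds of 6.86 and 7.34. At these read numbers, small differences among the other copies were not detectable.

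**Figure D4:**
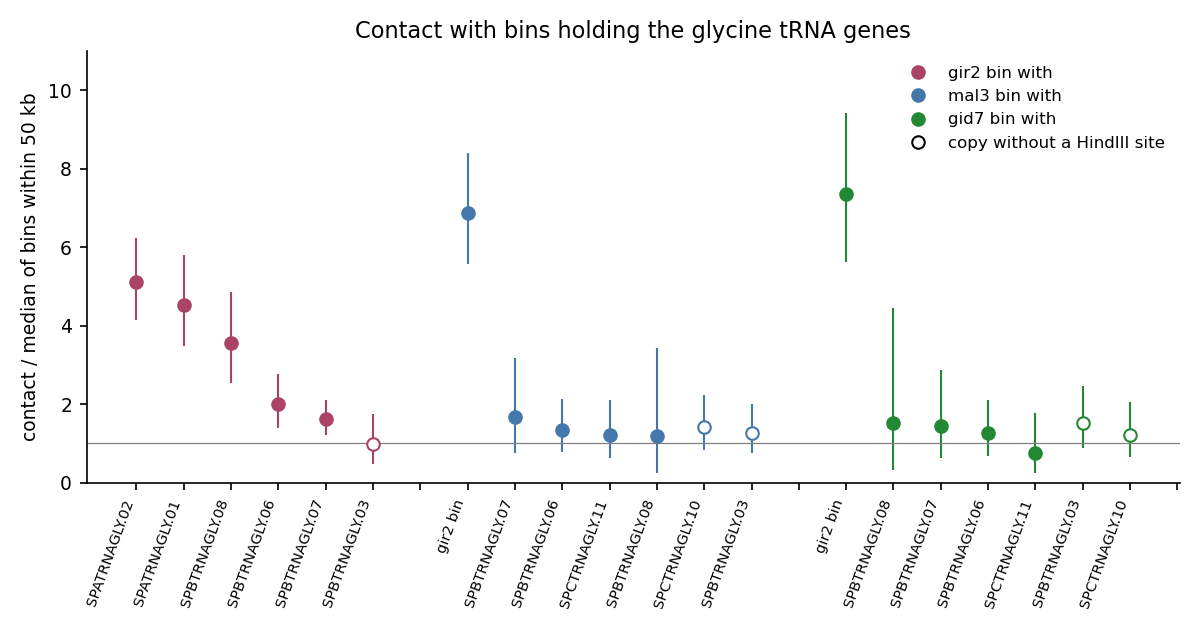
Corrected contact of the gir2, mal3 and gid7 bins (colours) with the bins that hold identical glycine tRNA genes on other chromosomes, divided by the median of bins within 50 kb (y, points; bars are 95% Poisson intervals of the reads). Filled points are copies with a HindIII site. As an exception, the filled mal3 and gid7 points at 6.86 and 7.34 are for the gir2 bin. That bin holds most of the fragment of the copy on III but not the glycine gene. The gir2 bin is above 1 with all 5 of its filled points and at 0.971 with the open one. The mal3 and gid7 bins are high only with the gir2 bin, and lower with the next bin, which holds that gene.

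By its HindIII fragment, the copy on III belongs mostly to the gir2 bin. The fragment that holds this gene runs from the site at 817322 to the site at 820634 and is 3312 bases long. Its middle lies in the gir2 bin, while the gene lies at its far end, in the next bin. The fragments of the other copies are 1224 bases (mal3), 318 bases (gid7) and 573 bases (II 570001) and lie with their genes in 1 bin. How reads were assigned to bins, by position or by fragment, is not given in the sources used here.

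Between the gir2 bin and the mal3 or gid7 bin, 0 words of 30 bases were shared, while the mal3 and gid7 bins share 46. Of all pairs of arm bins on different chromosomes that share a word of 30 bases, 2.18% reached 2 times expectation. Of the 14 pairs whose bins hold fragments with the same 30 end bases, by the middle of the fragment, 3 did (21.4%), and these were the gir2 bin with mal3, gid7 and II 570001. The first 2 were chosen by their contact, and the third was named for its rank among the partners of the gir2 bin. The fragment ends were examined after the values were seen, so this share lends the pattern no support. The other 11 had ratios of 0.785 to 1.53. Whether reads from the copy on III were placed at other copies was not tested. The bin to the right of mal3, at 3.85 times, holds no glycine tRNA gene. The copy in the mal3 bin ends at 2249250, however, close to the border of the 2 bins after 2250000. Whether the contact at 3.85 times involves that copy was not tested.

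**Figure D5:**
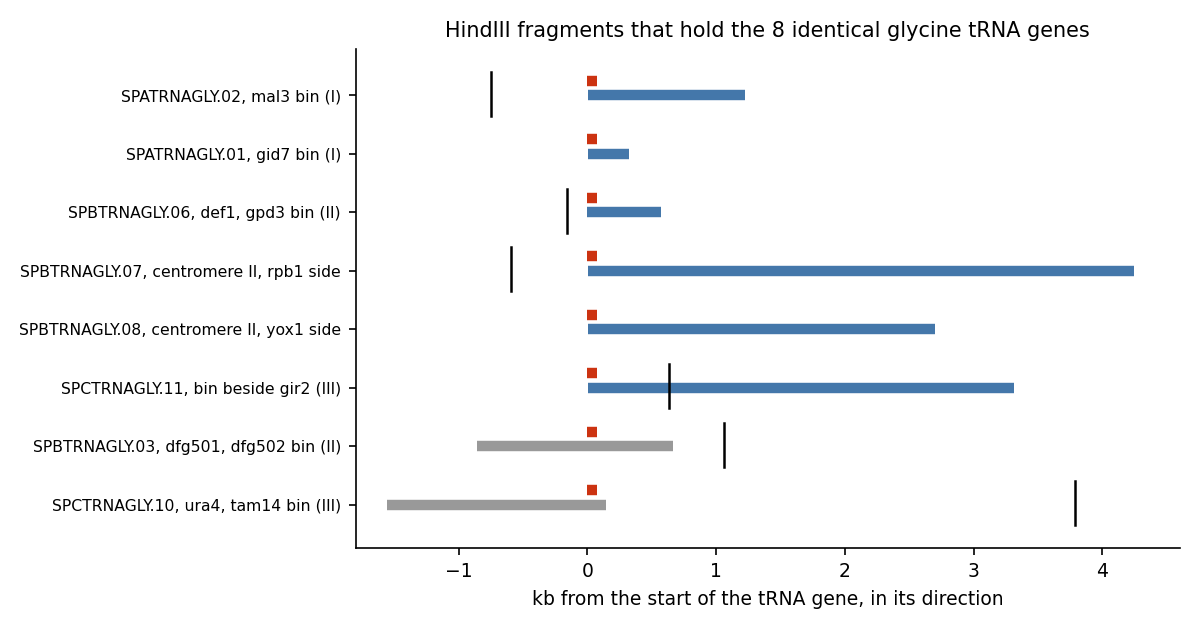
HindIII fragments (bars, blue where a site overlaps the gene and grey where none does) that hold the 8 identical glycine tRNA genes (red), by kb from the start of the gene in its direction (x); vertical lines are borders of 10 kb bins. The fragment of the copy beside gir2 crosses a bin border and reaches 3312 bases, most of it in the gir2 bin.

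Read number, sequence and local folding of the 3 bins are given beside the median arm bin, with a spread for local folding only. All 3 bins lay above the median in reads. They held 70921, 62689 and 66947 reads for mal3, gid7 and gir2, where the median of arm bins was 59437. They have 7, 5 and 8 HindIII sites (median 5) and 65.6, 64.2 and 63.9% AT (median 63.9). None of them holds a long terminal repeat or a 5S rRNA gene. Contact across each bin, between the 50 kb on either side, was 0.914, 0.994 and 1.00 of that expected (median 0.998, SD 0.0921 over arm bins). Other genes in them include rps7 for a ribosomal protein and the zinc finger gene byr3 beside mal3, img1 and the vacuolar ATPase gene vma1 beside gid7, and the copper transporter gene ctr4 and the telomere gene ten1 beside gir2.

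All 3 bins met centromere II, taken as the bins within 50 kb of its middle, more than the bins around them did (the fold is over the median of neighbours up to 100 kb away). The folds were 1.90 for mal3 (interval 1.47 to 2.41, 67 reads), 1.61 for gid7 (1.16 to 2.19, 41 reads) and 2.45 for gir2 (2.20 to 2.72, 355 reads). That stretch holds the 2 centromeric copies of the glycine gene, along with many other tRNA genes. At the copies, 1590001 and 1640001, the mal3 bin had corrected contacts of 13.1 (9 reads) and 9.34 (3 reads). At 1570001, which holds no tRNA gene, it had 14.4 (20 reads). The gid7 bin had 12.6 (8 reads) and 10.1 (3 reads) at the copies and 4.70 (6 reads) at 1570001. The gir2 bin had 78.4 (55 reads) and 122.3 (40 reads) at the copies and 48.2 (68 reads) at 1570001. The mal3 bin met centromere III at 1.16 (0.767 to 1.69) and the gid7 bin at 0.937 (0.449 to 1.72). The gir2 bin met centromere I at 0.953 (0.795 to 1.13). The mal3 bin met the ends of II less than its neighbours did, at 0.624 and 0.593 (intervals 0.440 to 0.861 and 0.428 to 0.802). The gir2 bin met the left end of II more than its neighbours did, at 1.68 (1.13 to 2.39, 30 reads). The other folds of gid7 and gir2 with chromosome ends ran from 0.766 to 1.15.

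The gid7 bin met 6 measured genes of the GID ligase at a median ratio of 0.890 and 12 of the anaphase-promoting complex at 0.967. Both lists mix genes on chromosomes I and II. All partners of the gid7 bin on other chromosomes had a median of 0.979, and those on chromosome I had 1.004. In the second list cut9 and cut23 lie in the same bin, whose value counts for each. In either list 0 reached 2 times, and with 1.02% of all inter-chromosomal and 0.337% of same-chromosome pairs at that level, lists of this size would hold few or none. The highest of the first list was gid5 (1.76) and of the second apc10 (1.38, interval 0.690 to 2.47, 11 reads). The mal3 bin met 6 microtubule plus-end genes at 0.816 to 1.08, with a median of 0.859. Among them was tip1, for a plus-end protein of the CLIP-170 family, at 0.823 (0.712 to 0.946, 198 reads). The bins on either side of the tip1 bin had like values, 0.891 and 0.821, so this one was not particular to tip1. The gir2 bin met gcn1 at 1.37 (0.837 to 2.12, 20 reads), the kinase gene gcn2 at 1.23 (0.802 to 1.80) and tif211, for a subunit of initiation factor 2, at 1.73 (0.992 to 2.82, 16 reads). The remaining gene of that list, gcn20, had 0.980, and the list's median was 1.30 where all inter-chromosomal partners of the gir2 bin had 1.13. The gcn1 bin lies 20 kb from mal3.

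No bin had a contact profile much like that of a member. Over the arm bins of other chromosomes, the profile of mal3 was most like that of I 3120001 with srb8 and rim2 (Spearman rho 0.19, 575 bins), then 2000001 with mtl1 and cid16 (0.17) and 710001 with mug65 and sxa2 (0.17). That of gid7 was most like 1190001 with ryh1 and pud1 (0.19), 2290001 with erg7 and ssa1 (0.18) and 2960001 with pdr1 and agl1 (0.17). That of gir2 was most like III 940001 with opy1 and pog1 (0.18, 885 bins), 1370001 with ags1 (0.17) and 2040001 with cox13 and cti1 (0.17). The mal3 and gid7 profiles had a rho of 0.12, the 55th highest of 474 candidates. These profiles rest on about 11 to 14 reads per pair and share 1 map and 1 correction, so such weak correlations are no finding.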

How the data were processed

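The authors deposited 1 map of corrected contact signal between 10 kb bins. Per the file headers it was iteratively corrected with the diagonal kept and rests on 37571192 reads. The submitters' processing notes name Bowtie2 2.1.0 and the build ASM294v2. The header path carries a tag for replicate 1, with no word on pooling. It counts here as 1 sample. Reads per bin pair were recovered by finding the factor of each bin. Whole reads, to a tolerance of 0.05, resulted for 99.1% of all values and for 100% where fewer than 30 reads were found. Their total was 99.9% of that in the header. Genes and sequences came from RefSeq's ASM294v3, in which all 3 chromosomes are as long as in the map. Within an arm, expectation was the mean of arm bin pairs at the same separation, and between the arms of a chromosome the mean by distance from the centromere. Exact Poisson intervals at 95% cover counting error only and leave out the error of the expectation.

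The members and lists were chosen with earlier results of these data known, and no test was made. Named partners were the 5 highest ratios with at least 10 reads on other chromosomes and the 5 on the same chromosome at least 100 kb away, with bins within 2 of a stronger one merged. The 3 bins most alike by Spearman correlation were named too, with at most 2 genes a bin. Of the genes of the 4 pathway lists, those found in the annotation on arm bins, at least 100 kb away on the same chromosome, were measured. The glycine tRNA copies, their fragments and the local folds were examined after the values were seen. The recovery and the ratios were tested on simulated data with 20 inter-chromosomal pairs raised 6 times. The median ratio recovered for these was 6.16, and 18 of the 20 intervals held the simulated fold. Of all simulated inter-chromosomal pairs, 0.437% reached 2 times, against 1.02% of such arm bin pairs in the map. Simulated reads were drawn around the fitted expectation with counting error only. The simulation thus checks the computation and leaves out any wider spread of the map. The scripts ran under Python 3.11.15. Their libraries were SciPy 1.17.1, pandas 2.3.3, NumPy 2.4.6 and, for figures, matplotlib 3.10.9.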

Additional observations from a re-analysis of the deposited data

How the results depend on the processing

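With 1 map, each value's limit is its read number. Of 71 recomputed values, 60 stayed inside the 95% interval of the main value. The contact of mal3 with gid7 ran from 1.28 to 1.53 times the mean over 7 alternatives, with 15 to 42 pairs as high. Reads without the correction gave 10.6 for mal3 with gir2, ring means of 1.10 around mal3 with gid7 and 2.08 around mal3 with gir2, and medians with tRNA bins of 1.29 for mal3 and 1.36 for gir2. With the mean of all inter-chromosomal arm pairs as expectation, mal3 with gir2 had 5.71 and gid7 with gir2 4.003, with 148 and 801 pairs as high. The ring mean around mal3 with gir2 was then 1.11 and that around gid7 with gir2 0.823, below 1, and the medians with tRNA bins 0.781 for gid7 and 0.952 for gir2. That setting leaves out distance from the centromere. Under the other 8 settings for gir2 pairs, each remained among the 3 highest. No paired analysis was possible because the 1 map carries no replicates.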
